A study of Caenorhabditis elegans with 18 samples.

Results

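The genes described here encode enzymes of fatty acid oxidation in the nematode Caenorhabditis elegans. They were taken from the count table by name, as protein-coding rows whose symbol begins with acdh, acs, acox, ech, hacd, cpt, maoc or kat followed by a number. The rule found 60 genes among 46934 rows, of which 19995 are protein-coding. One further name, acs-23, matched but is classed as a pseudogene, and it was left out of every sum below.

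The study profiled RNA depleted of ribosomal RNA in 6 genotypes of whole worms, with 18 labelled libraries, 3 for each genotype. Its mutants were F180del (allele ma447), G199S (ma443), V254I (zen25), H751L (zen18) and a null (tm492), each an allele of alg-1, the gene of a microRNA-binding Argonaute protein. The N2 wild type was their control. Worms were grown on Escherichia coli HB101, hatched without food so that larvae started together, and collected once they had fed for 45 hours at 20 °C. The mutant columns of the table carry strain names that the labels used here do not pair with alleles. The values below therefore come from the 3 wild-type libraries, given the letters A, B and C of their columns, and no mutant was compared with the wild type. Whether these are separate cultures is not stated in the labels, so differences among them may be technical. In RNA from whole worms, fewer cells of a type and less RNA per cell cannot be told apart.

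Fatty acid oxidation shortens fatty acids by cutting pieces from their carboxyl end. An acyl-CoA synthetase (acs genes) first joins the fatty acid to coenzyme A, and carnitine palmitoyltransferases (cpt genes) carry long chains into mitochondria. Each round of beta-oxidation then uses a dehydrogenase (acdh genes) or, in peroxisomes, an oxidase (acox genes), followed by a hydratase (ech genes, maoc-1), a hydroxyacyl-CoA dehydrogenase (hacd-1) and a thiolase (kat-1). Several acdh and ech enzymes also break down branched amino acids and propionate. In C. elegans the peroxisomal branch trims the side chains of ascarosides, the worm's pheromones.

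Libraries A, B and C held 6223521, 5768308 and 5062173 assigned reads. A count of 0 would allow up to 0.482, 0.52 and 0.593 CPM in these libraries (CPM, a gene's reads per 1000000 assigned reads), for counting error only. alg-1 itself was read at 231 ± 22.6 CPM (SD, n = 3). All 8 intestinal markers were read in every library, summing to 7065, 7470 and 7985 CPM, and so were 8 of 8 hypodermal, 6 of 6 body wall muscle, 6 of 6 neuronal and 6 of 6 germline markers. Oocyte and eggshell markers summed to 1244, 1240 and 1074 CPM, sperm markers to 333, 344 and 300.1 CPM, and the 6 vitellogenins to 7811, 7340 and 5602 CPM. As sums, these 3 lists and the germline markers (1591, 1580 and 1453 CPM) were lowest in C. Intestinal and hypodermal sums (5096, 5036 and 5736 CPM for the second) were highest in C. So were body wall muscle (27608, 29164.5 and 29355 CPM) and neuronal sums (408, 410 and 418 CPM). Few genes set some sums, as asp-1 gave 4458 of the mean 7507 intestinal CPM, and single markers differed. Relative to library totals, ifb-2 (2122, 2035 and 1638 reads) was lowest in C, and spe-11 (20, 27 and 27 reads) was highest in C. The part of tissue make-up in the levels below was not tested.

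All 60 genes had reads in all 3 libraries, against 72.6% of the 19927 other protein-coding genes with an annotated length. Together the 60 took 0.624%, 0.655% and 0.645% of the reads of A, B and C (mean 0.641% ± 0.0157). Their median level was 23.4 CPM per kb of annotated exon, against 3.33 for the other protein-coding genes. By reads, 16 members reached 100 CPM, 33 lay between 10 and 100 CPM, and 11 were under 10 CPM. At or above 100 CPM stood 26.7% of the members and 7.87% of the other genes. These figures describe the wild type, and no test was made of them.

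**Figure D1:**
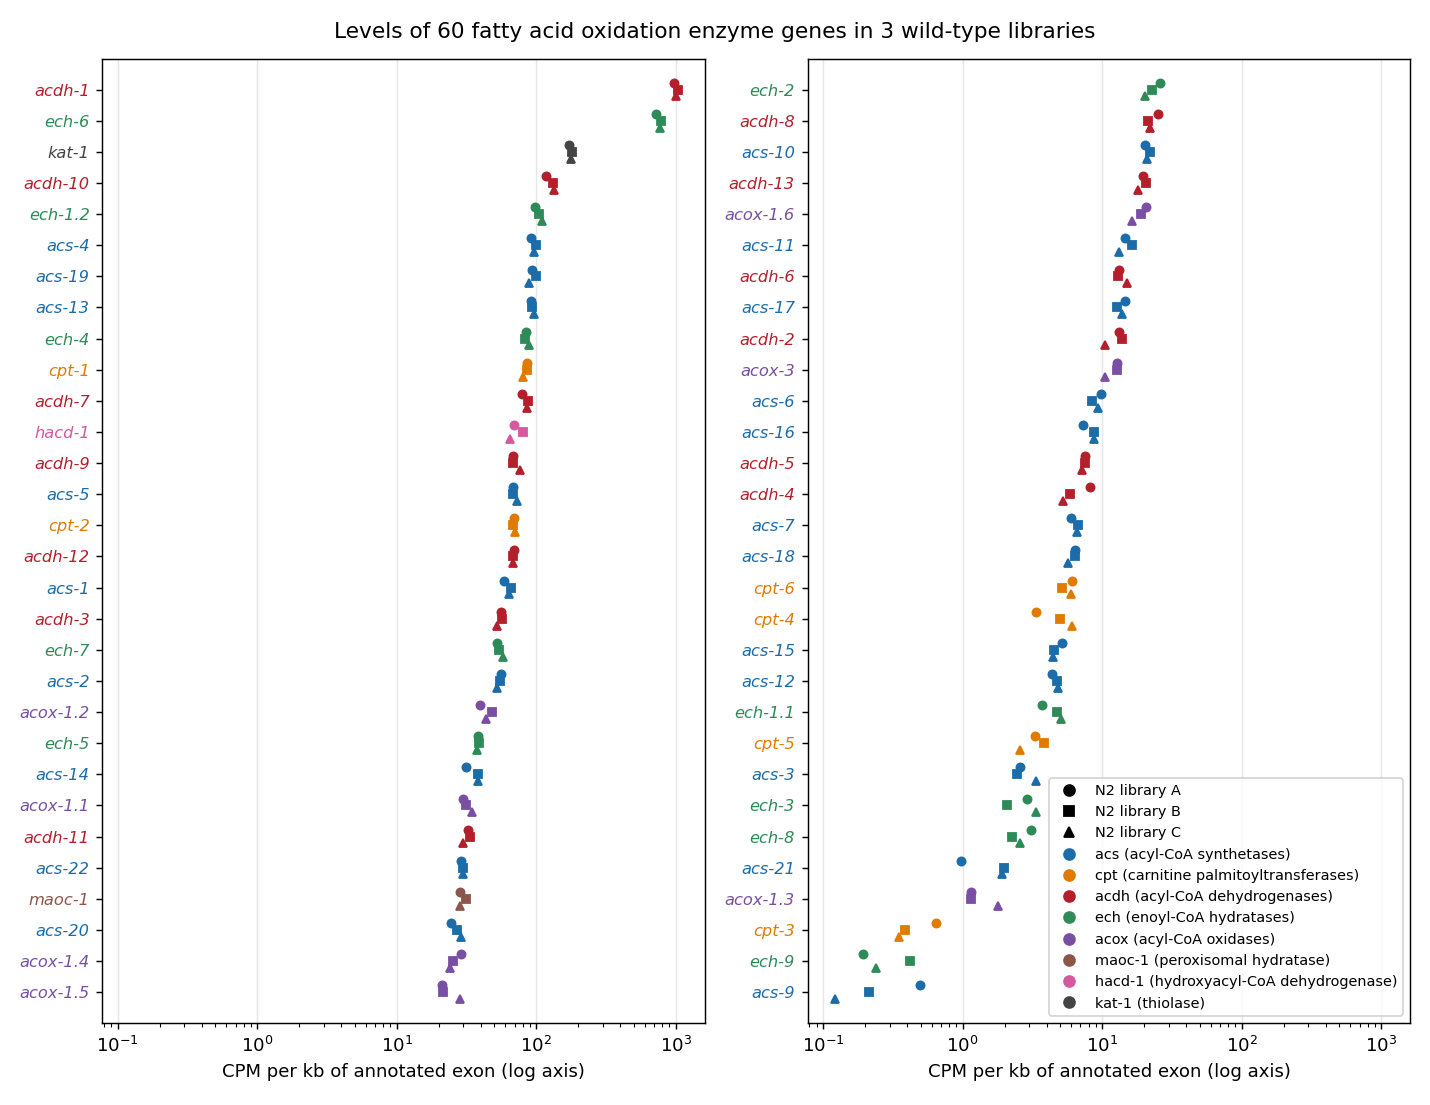
Level of each of the 60 genes in CPM per kb of annotated exon (log axis), with 1 point for each wild-type library and colours for the enzyme families. acdh-1 and ech-6 lie apart at the top, at 1003 and 756 CPM per kb, and acs-9 and ech-9 lie at the bottom at 0.28 CPM per kb.

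A pair of genes dominated the set. acdh-1, the short-chain acyl-CoA dehydrogenase that opens the propionate shunt and is widely used as a dietary reporter of vitamin B12, was read 10189, 10000 and 8489 times. This corresponds to 1637, 1734 and 1677 CPM, or 1003 ± 28.9 CPM per kb, and acdh-1 alone held 26.2% of the reads of the 60 genes. ech-6, the mitochondrial enoyl-CoA hydratase that acts next in the same shunt, followed at 734, 791 and 779.7 CPM, or 756 ± 30 CPM per kb. Both were lowest in A and highest in B. Within libraries acdh-1 exceeded ech-6 in 3 of 3, by a ratio of 1.33 ± 0.0244 per kb. The third gene, kat-1, stood far below at 177 ± 4.83 CPM per kb.

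The order below these genes was less sharp. Per kb of exon, the 3-library ranges of 46 of the 59 neighbouring pairs in the order overlapped, and those of 13 did not. acdh-1, ech-6, kat-1 and acdh-10 were each separated from the gene beneath. From ech-1.2 to acs-13 each gene overlapped the next in range, although ech-1.2 was above acs-4 in 3 of 3 libraries. So did the genes from ech-4 to acdh-12, between 85.2 and 68.2 CPM per kb, among which acdh-7 was above hacd-1 in 3 of 3.

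The 13 acyl-CoA dehydrogenase genes took 0.248% ± 0.00614 of all reads, the largest share of any family by mean, and 38.7% of the reads of the 60 genes. That first place rests on acdh-1, which alone held 26.2% of the reads of the 60 genes, against 24% for the acs family. After acdh-1 came acdh-10, related to the human medium-chain enzyme, with 164, 182 and 186 CPM, or 128 ± 8.7 CPM per kb. Library A was the low one. Its neighbour on chromosome X, acdh-7, of the same medium-chain type, had 105, 117 and 116 CPM, or 83.9 ± 4.89 CPM per kb, and was again lowest in A. acdh-10 exceeded acdh-7 by 1.51, 1.51 and 1.56 per kb in A, B and C. Counting error alone was 3.16% for acdh-10 and 3.95% for acdh-7, so these libraries cannot show that the ratio is steady. In the WBcel235 annotation they stand on the same strand with 114 bases between them. acdh-8 was lower, at 22.8 ± 2.05 CPM per kb.

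acdh-12, the very-long-chain type of the family, had 142, 138 and 138 CPM (68.2 ± 1.02 CPM per kb). Its coefficient of variation of 1.49% was below the 3.55% of counting error alone, so the close values do not show a steadier gene. acdh-9 stood at 70.7 ± 4.61 and acdh-3 at 55.1 ± 2.34 CPM per kb. acdh-11, which is known in the worm for limiting fat desaturation at high temperature, had 62.7, 64.8 and 57.7 CPM, or 31.9 ± 1.89 CPM per kb. acdh-13, acdh-6, acdh-2, acdh-5 and acdh-4 filled the lower end, at 19.4, 13.8, 12.6, 7.41 and 6.46 CPM per kb. acdh-2, a relative of acdh-1, was read 155, 151 and 100 times, and acdh-1 exceeded it by a ratio of 80.6 ± 12.2 per kb. The sources used here do not say how reads that fit both genes were handled.

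**Figure D2:**
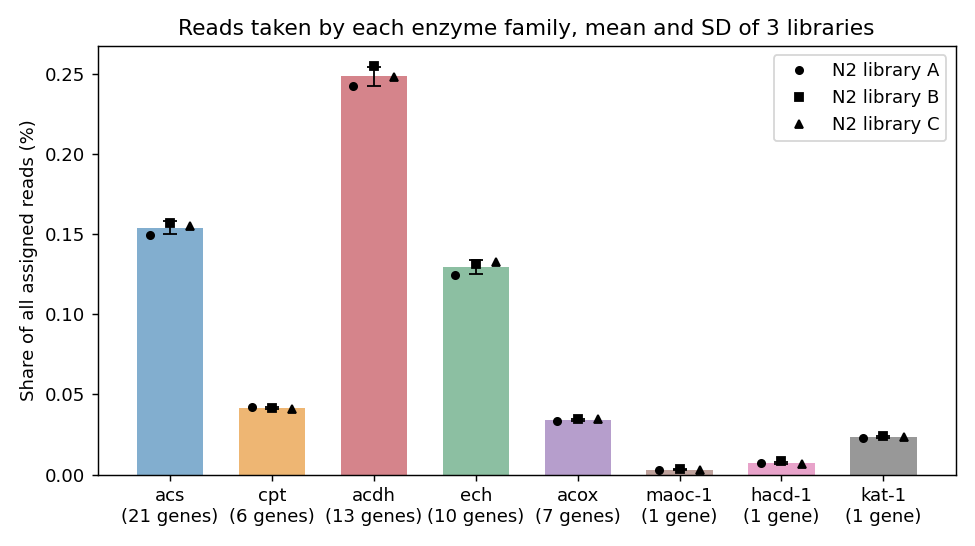
Share of all assigned reads taken by each enzyme family (percent), as bars for the mean of 3 wild-type libraries with SD and a point for each library. The acdh family took 0.248%, the acs family 0.154% and the ech family 0.13%, and the points of each family lie close together.

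Genes for the activation step were the most numerous. The 21 acs genes took 0.154% ± 0.00406 of reads, but their median level was only 14.8 CPM per kb, and they ran between 0.277 and 95.9 CPM per kb. At the top, acs-4 had 259, 281 and 275 CPM (95.9 ± 4.01 per kb), acs-19, annotated as an acetyl-CoA synthetase, had 216, 231 and 208 CPM (93.5 ± 4.99 per kb) and acs-13 had 243, 247 and 255 CPM (93.2 ± 2.32 per kb). Per kb of exon, acs-4 was above acs-13 in 3 of 3 libraries by a small margin (ratio of acs-13 to acs-4 0.972 ± 0.0349), and acs-19 overlapped both in range. acs-5 followed at 69.6 ± 2.46 CPM per kb.

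acs-1, required to use monomethyl branched-chain fatty acids, was at 141, 159 and 153 CPM (62.7 ± 3.83 per kb). acs-2, a mitochondrial synthetase that is a standard fasting-response target of the nuclear receptor NHR-49, had 117, 114 and 108 CPM (54.4 ± 2.12 per kb). acs-2 was below acs-1 in 3 of 3 libraries, with a ratio of 0.87 ± 0.0791 per kb. acs-22 and acs-20, fatty acid transport protein homologs known for the cuticle barrier, were alike at 29.4 ± 0.655 and 26.7 ± 2.21 CPM per kb. The ratio of acs-22 to acs-20 was 1.11 ± 0.0678 per kb, above 1 in 3 of 3 libraries.

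The middle of the family held acs-14 (35.9 CPM per kb), acs-10 (21.2), acs-11 (14.8) and acs-17 (13.8). Lower still were acs-6, acs-16, acs-7 and acs-18, between 9.21 and 6.15 CPM per kb. acs-7 takes part in attaching side groups to ascarosides, and was read 63, 65 and 56 times. acs-15, acs-12 and acs-3 stood at 4.71, 4.65 and 2.82 CPM per kb. acs-21 had 10, 19 and 16 reads. acs-9 was barely measured, with 5, 2 and 1 reads, a pooled 0.469 CPM with an exact 95% Poisson interval of 0.203 to 0.924 that covers counting error only.

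The carnitine shuttle was represented by a main pair and 4 minor genes. cpt-1, which loads fatty acids onto carnitine at the outer mitochondrial membrane, had 242, 239.6 and 225 CPM (84 ± 3.18 per kb). cpt-2, which returns them to coenzyme A inside, had 148, 144 and 151 CPM (69.3 ± 1.58 per kb). cpt-1 exceeded cpt-2 by 1.21 ± 0.0682 per kb and in 3 of 3 libraries. The carrier gene between these enzymes, dif-1, stood at 86.8 ± 3.24 CPM per kb. cpt-6, cpt-4, cpt-5 and cpt-3 were lower, at 5.75, 4.84, 3.24 and 0.459 CPM per kb. cpt-3 had only 9, 5 and 4 reads, a pooled 1.06 CPM with an exact 95% Poisson interval of 0.626 to 1.67.

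Of the 10 ech genes, ech-6 made up the larger part of the family's 0.13% ± 0.00454 of reads. ech-1.2 and ech-1.1 are both related to the alpha subunit of the human mitochondrial trifunctional protein, which handles long chains. ech-1.2 was read 1631, 1606 and 1483 times (262, 278 and 293 CPM), against 58, 69 and 65 times for ech-1.1 (9.32, 12 and 12.8 CPM). Per kb of exon ech-1.2 exceeded ech-1.1 by 26.6, 22 and 21.5 in A, B and C. The remaining members with over 30 CPM per kb were ech-4 (85.2 ± 3.46), an isomerase-type enzyme, ech-7 (54.8 ± 2.63) and ech-5 (38.1 ± 0.479).

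ech-2 stood at 23.1 ± 2.94 CPM per kb, with 173, 141 and 109 reads. ech-3, ech-8 and ech-9 were the low members, at 2.77, 2.66 and 0.285 CPM per kb. ech-8 and ech-9 lie next to each other on chromosome IV on the same strand, 1296 bases apart in WBcel235, and were read 28, 19 and 19 times against 2, 4 and 2 times. With so few reads of ech-9, its pooled 0.469 CPM has an exact 95% Poisson interval of 0.203 to 0.924.

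The hacd and kat names each cover 1 gene in the set. The names do not show whether other genes of the set, such as ech-1.2, also act at these steps. kat-1, a ketoacyl-CoA thiolase, had 228, 240.1 and 237 CPM, a coefficient of variation of 2.73%. hacd-1, a hydroxyacyl-CoA dehydrogenase, had 71.2, 82.3 and 66.6 CPM (71.8 ± 7.94 per kb). hacd-1 was the more variable of the pair, highest in B and lowest in C. Per kb its ratio to kat-1 was 0.406, 0.445 and 0.365.

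The 7 acyl-CoA oxidase genes took 0.0341% ± 0.00078 of reads, and none reached 100 CPM. acox-1.2 led with 81.1, 99.7 and 90.3 CPM (43.6 ± 4.47 per kb), followed by acox-1.1 with 75.5, 79.2 and 87.3 CPM (32 ± 2.39 per kb). Both act on ascaroside side chains. acox-1.2 exceeded acox-1.1 in 3 of 3 libraries, by 1.31, 1.53 and 1.26 per kb. acox-1.4 was at 26.2 ± 2.47, acox-1.5 at 23.6 ± 3.99, acox-1.6 at 18.7 ± 2.06 and acox-3 at 12 ± 1.27 CPM per kb.

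acox-1.3 was far lower, with 15, 14 and 19 reads (1.36 ± 0.366 CPM per kb). It lies inside a run of 4 oxidase genes on chromosome I, in the order acox-1.1, acox-1.2, acox-1.3 and acox-1.4, all on the same strand with no other protein-coding gene between them. The gaps are 52, 343 and 34 bases in WBcel235. Both genes adjacent to acox-1.3 were higher in 3 of 3 libraries, acox-1.2 by a ratio of 33.5 ± 8.67 and acox-1.4 by 20.3 ± 6.02 per kb. How reads that fit more than 1 gene of this run were handled is not given, and the ratios may depend on it.

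maoc-1, the peroxisomal hydratase of ascaroside synthesis, had 30.2, 33.3 and 30.2 CPM (29.4 ± 1.67 per kb). The later enzymes of that route are not in the set by name. dhs-28, its dehydrogenase, stood at 155 ± 10.5 CPM per kb and daf-22, its thiolase, at 91.9 ± 3.34. Per kb the ratio of maoc-1 to daf-22 was 0.32 ± 0.0152, and kat-1 exceeded daf-22 by 1.93 ± 0.0229. By this measure the hydratase gene was the lowest of the 3 peroxisomal steps after oxidation. maoc-1 and acdh-12 are neighbours on chromosome II, on opposite strands and 634 bases apart.

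acdh-1 and ech-6 belong to the propionate shunt, a vitamin B12-independent route that removes propionyl-CoA, and its other enzymes were also abundant. hphd-1, which oxidises the hydroxypropionate intermediate, stood at 769.7 ± 50.7 CPM per kb and alh-8, the last enzyme, at 1273 ± 56.9. hach-1, the hydrolase between ech-6 and hphd-1, was at 268 ± 16.3. acdh-1 thus lay below alh-8 in 3 of 3 libraries (ratio 0.788 ± 0.0169 per kb) and above hphd-1 in 3 of 3 (1.31 ± 0.054).

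In the vitamin B12-dependent route, the carboxylase subunit genes pcca-1 and pccb-1 stood at 163 ± 8.07 and 260.4 ± 13.6 CPM per kb, the epimerase gene mce-1 at 26.6 ± 1.59 and the mutase gene mmcm-1 at 46 ± 4.93. acdh-1 exceeded pcca-1 by 6.36, 6.12 and 6.05 per kb, and mmcm-1 by 24.2, 20.9 and 20.7. The lowest shunt gene and the highest gene of this route were alike per kb, with a ratio of hach-1 to pccb-1 of 1.03 ± 0.032, above 1 in 2 of 3 libraries. Transcript levels do not measure flux through either route.

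**Figure D3:**
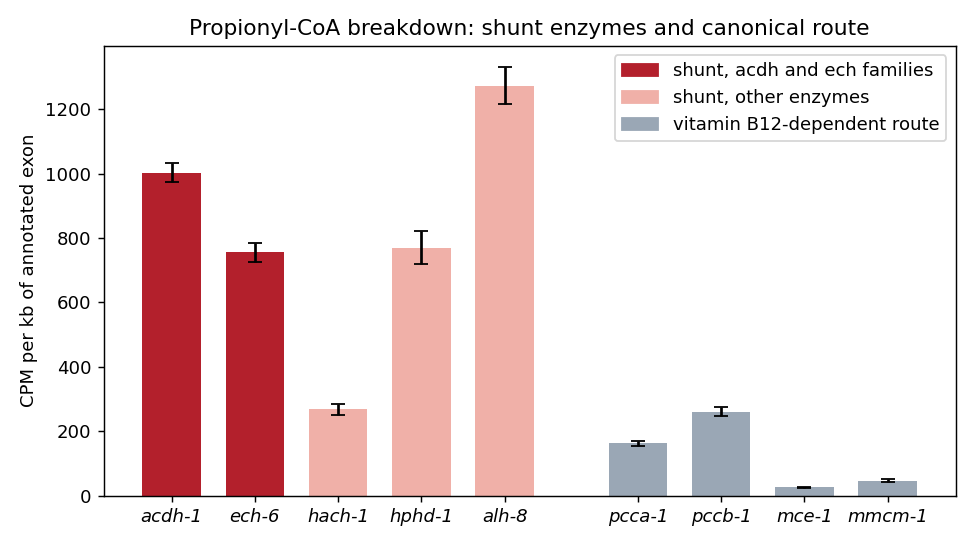
Mean level with SD over 3 wild-type libraries, in CPM per kb of annotated exon, of the genes of the propionate shunt (red shades, the darker 2 being acdh-1 and ech-6) and of the vitamin B12-dependent route (grey). Of the shunt genes, hach-1 lies lowest at 268 CPM per kb, close to the highest grey bar, pccb-1, at 260.4.

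Genes that feed or regulate fatty acid oxidation were read throughout. All 9 listed genes of branched-chain amino acid breakdown stood at or above 100 CPM, with a median of 120 CPM per kb. Of 18 peroxisomal genes, 3 reached 100 CPM and 5 were below 10 CPM. Of 12 lipid-responsive regulators, mdt-15, daf-16 and hlh-30 reached 100 CPM. nhr-49 stood at 33.2 ± 3.48 CPM per kb and nhr-68 and nhr-10, receptors that act on the propionate shunt, at 35.9 ± 2.42 and 10.9 ± 1.41.

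Lists of other lipid pathways had their own leaders. Of 14 fatty acid synthesis genes 7 stood at or above 100 CPM. Per kb of exon, elo-1 led them at 415 ± 17 CPM, followed by elo-6 at 205 ± 3.41. The longer genes fasn-1 and pod-2 stood at 179 ± 8.39 and 141 ± 3.89 CPM per kb. Of 16 storage, lipase and lipid carrier genes 4 reached 100 CPM, led by the fatty acid-binding protein gene lbp-6 at 771 ± 35.4 CPM per kb. The lipase genes lipl-1 to lipl-4 were below 10 CPM, while lipl-5 was at 201 ± 20.4 CPM. The electron transfer and carnitine list was matched for 5 of 7 names, of which let-721, the electron transfer flavoprotein dehydrogenase, had 36.9 ± 0.985 CPM per kb.

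The wild-type libraries agreed closely for most members. For the 54 members with a mean of at least 20 reads, the median coefficient of variation was 6.42%, and for 10229 other protein-coding genes passing the same filter it was 8.93%. The members had more reads than most genes. With a minimum of 100 reads on average, the medians were 5.88% over 40 members and 6.41% over 5745 other genes. In 22 of the 54 the coefficient of variation was no larger than counting noise gives, and in 8 it was over 2 times as large. Those 8 were acdh-1, ech-6, ech-1.2, acdh-10, acox-1.2, hacd-1, acox-1.5 and cpt-4. Counting noise shrinks with depth. It was 1.02% for acdh-1, against a coefficient of variation of 2.88%, and 12.6% for cpt-4, against 28.4%. Neither count was made for other genes, so they show nothing particular to the members.

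**Figure D4:**
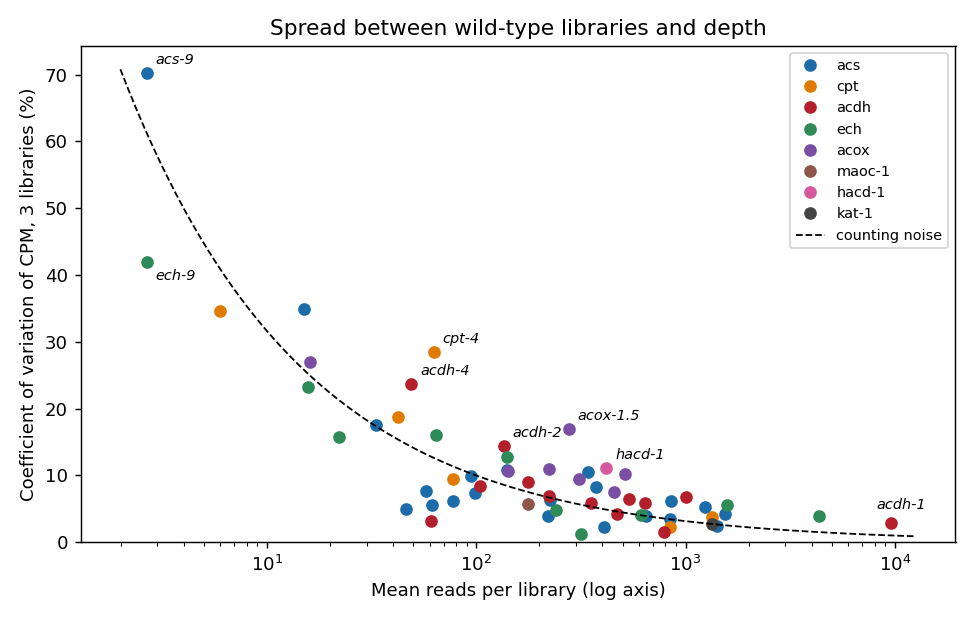
Coefficient of variation of CPM over 3 wild-type libraries (percent) against the mean reads per library (log axis), 1 point per gene, with the counting noise of a gene at that depth as a dashed line. Points follow the line at low depth, and cpt-4 (28.4%), acdh-4 (23.7%) and acox-1.5 (16.9%) lie above it.

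By coefficient of variation, the members that moved most between libraries were minor genes, and they moved in different directions. Relative to counting noise the order differed, with acdh-1 at 2.82 times, acox-1.5 at 2.81 and ech-6 at 2.62. acox-1.2 (2.32) and hacd-1 (2.26) also stood above cpt-4 (2.25), and acdh-4 was further down at 1.66. cpt-4 was read 49, 67 and 72 times, which is 7.87, 11.6 and 14.2 CPM, highest in C and lowest in A. acdh-4 ran the other way, with 67, 45 and 35 reads, or 10.8, 7.8 and 6.91 CPM. These 2 were the only ones of the 54 whose highest and lowest library differed by more than 1.5-fold. acox-1.5 had 44.2, 44.7 and 58.9 CPM, with C apart from the others. Of the 54 members, A held the highest level of 14, B of 23 and C of 17, and A held the lowest of 25, B of 9 and C of 20. These counts were not made for other genes. The median deviation of the 54 members from their own mean was -0.03 in A, 0.03 in B and 0.01 in C on the log2 scale. For the 10229 other genes it was 0.004, -0.008 and 0.005. The smallest p that a two-sided exact sign-flip test allows with 3 libraries is 0.25, and the order of genes was not tested.

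Longest annotated coding lengths gave 385 to 617 residues for the acdh family, 659 to 674 for acox, 497 to 731 for acs, 646 to 779 for cpt and 256 to 781 for ech, where ech-1.2 and ech-1.1 are the long members. The 60 genes lie on all 6 chromosomes, with 12 on I, 12 on II, 8 on III, 9 on IV, 13 on V and 6 on X. acdh-2 has 14 annotated transcripts, the largest number in the set. Exons of 20 members share bases with another annotated gene in WBcel235. The strand setting is not known from the labels or headers, so reads there cannot be told apart by strand. The shared part was 14.1% of exon bases in acs-9, where the partner T20F7.1 had 26, 22 and 18 reads against the 5, 2 and 1 of acs-9. It was 12.3% in ech-3 (partner F43H9.3) and 9.88% in maoc-1 (partner E04F6.6). acdh-3 shared 8.17% with K06A5.3 and 6.11% with knl-2.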

How the data were processed

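The authors deposited raw counts, whole numbers with unequal totals. The submitters' processing notes name Bowtie2 2.3.5.1, Subread 1.6.2 with featureCounts, and cutadapt 1.9, without their order. Genome build, strand setting and the handling of multiply mapping reads: not given in the sources used here. Per the labels, ribosomal RNA was depleted and whole worms were used. Only the 3 N2 columns match a genotype label. The other 15 value columns carry strain names and were not used, so the genotype tests and their alternatives were not run. CPM was the count over the library total, times 1000000. CPM per kb divided it by the union of annotated exons (Ensembl release 115, WBcel235, joined by gene identifier, 60 of 60 matched). Ratios were taken within libraries. Spread used log2(CPM + 0.5) and genes with at least 20 reads on average. A few members were named by a rule covering the leaders per kb, acdh-1, ech-6, acs-2, cpt-2, kat-1, maoc-1, acox-1.1 and hacd-1. The others, and the ratios, were chosen after their values were seen. The members and lists were chosen with earlier results of these data known. TMM and RLE factors came from edgeR 4.0.16 in R 4.3.3, and the rest from Python 3.11.15, numpy 2.4.6 and pandas 2.3.3.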

Additional observations from a re-analysis of the deposited data

How the results depend on the processing

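The tests between genotypes fixed for this study were not run, since 15 columns could not be matched to genotypes. No paired analysis was possible because only 1 genotype was used and its columns carry no replicate number. The share of reads taken by the 60 genes was 0.641%, and 0.679% when the protein-coding total was the denominator. TMM and RLE library sizes moved neither this share, nor the counts of members at or above 100 CPM and below 10 CPM, nor the alg-1 level, nor any of 10 named members by more than 1 SD. The protein-coding total moved 7 of those 10 upwards by more than 1 SD, and leaving out any 1 library moved none. That last outcome was fixed in advance, since dropping 1 of 3 libraries cannot shift their mean by 1 SD. It shows nothing about stability. The median level of the members was 23.4 CPM per kb of exon and 26.1 per kb of longest coding length, and the 10 highest genes were the same under both lengths. The median SD of log2(CPM + 0.5) over members was 0.09, and between 0.07 and 0.09 with 1 library left out. The alternatives for spread, coding length, RLE and single libraries were chosen after seeing the data. For members with few reads, such as acs-9, ech-9 and cpt-3, counting error limits the level.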

Other observations

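The pseudogene acs-23, which matches the name pattern but is not protein-coding in the table, had 21, 17 and 14 reads in A, B and C (3.03 ± 0.312 CPM). Without regard to length, it was above the protein-coding members cpt-3, ech-9 and acs-9 in 3 of 3 libraries. Near-identical copies of its parts elsewhere in the genome were not searched for.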
